A study of Mus musculus with 12 samples.

Results

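Messenger RNA of the cardiac adrenergic receptors and of the enzymes next to them in the signalling chain was examined in the left ventricle (LV) and right ventricle (RV) of humanized phospholamban mice. The genes were the alpha-1 receptors Adra1a, Adra1b and Adra1d, the beta receptors Adrb1 and Adrb3, the adenylyl cyclases Adcy5 and Adcy6, and the receptor kinase Grk5. They were taken by symbol, 8 of the 33641 genes listed, and all 8 were found in each of the 12 samples. In both lines of mice the coding sequence of the endogenous phospholamban gene had been replaced by the human one, so the controls were knock-in animals too. WT-PLN mice carried human wild-type phospholamban, and R14del-PLN mice were heterozygous, with a human wild-type allele and a human allele that lacks arginine 14. The mice were labelled C57BL/6J and 12 to 14 weeks old, came from chimeras that had been bred to Sox2-Cre mice, and received no treatment for these samples that the labels name. There were 4 groups of 3 samples, from WT LV, WT RV, R14del LV and R14del RV, and R14del samples carry KO in their titles. The comparisons ask which transcripts differ with the R14del allele in each ventricle and between the ventricles of each genotype. A tissue sample holds many cell types, so fewer cells of a type and less RNA per cell cannot be told apart.

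Noradrenaline and adrenaline reach the heart from sympathetic nerves and the adrenal gland. Beta-1 receptors couple to the stimulatory G protein and adenylyl cyclase, whose product cAMP activates protein kinase A, and that kinase phosphorylates phospholamban and so relieves its inhibition of the calcium pump SERCA2a. Alpha-1 receptors couple to Gq and phospholipase C instead, while receptor kinases such as Grk5 phosphorylate activated receptors and uncouple them from their G proteins.

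None of the 8 genes was called different between genotypes or between ventricles. Calls required a limma p of 0.05 or less after Benjamini-Hochberg adjustment over the 12526 genes whose mean reached 0.5 TPM, together with a change of 1.5-fold or more on the log2(TPM + 1) scale. TPM states the share of a sample's transcripts that a gene holds and is scaled for gene length, so levels of different genes can be set side by side. By fold of mean TPM, the larger genotype differences were in the 2 lowest transcripts, Adra1d in both ventricles and Adrb3 in RV. The R14del mean TPM of Adra1d was 2.07-fold the WT mean in LV and 2.85-fold in RV, with limma adjusted p-values of 0.351 (LV) and 0.268 (RV), and that of Adrb3 was 1.01-fold in LV and 3.47-fold in RV, from means of at most 0.189 TPM (adjusted p = 1 and 0.976). On the log2(TPM + 1) scale, Adra1a, Adra1b, Adrb1, Adcy5, Adcy6 and Grk5 differed by at most 0.34 in size in either genotype comparison. Adrb3 differed by 0.0052 in LV and 0.17 in RV on that scale, so it did not stand above them there. Of the other genes of the pathway, 1 was called, Rgs2, which encodes a regulator that shortens Gq signalling and was lower in R14del RV than in WT RV.

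The promoters of Rgs2 and Adrb1 are shown because Rgs2 carried the only call in the pathway and Adrb1 was the only one of the 4 genes with a promoter window, among the 8, whose window held the short core of the cAMP response element. Sequences are from RefSeq on GRCm38.p6 and span the 250 bases before the annotated start, read on the strand of the gene from 5′ to 3′. Capitals mark each match to TGACG or to CGTCA, which is the same word on the other strand. The full palindrome TGACGTCA contains both words.
Rgs2, chr1:144004150-144004399, minus strand: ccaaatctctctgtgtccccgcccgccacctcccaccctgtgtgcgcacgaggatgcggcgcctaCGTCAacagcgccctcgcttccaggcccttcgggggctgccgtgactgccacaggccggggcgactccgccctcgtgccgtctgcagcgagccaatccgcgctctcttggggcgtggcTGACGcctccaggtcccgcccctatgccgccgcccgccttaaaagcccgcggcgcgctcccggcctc
Adrb1, chr19:56721867-56722116, plus strand: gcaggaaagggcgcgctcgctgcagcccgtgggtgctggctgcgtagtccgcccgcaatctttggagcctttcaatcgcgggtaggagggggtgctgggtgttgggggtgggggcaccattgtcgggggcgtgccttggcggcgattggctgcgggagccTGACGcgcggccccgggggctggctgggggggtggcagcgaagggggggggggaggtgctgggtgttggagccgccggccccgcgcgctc

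The Rgs2 window held 2 matches, 1 in each orientation, and the Adrb1 window held 1. Windows of 4 of the 8 genes were available, 5 windows in all because Adra1b has a pair of annotated starts, and the windows of Adra1b, Adcy5 and Grk5 held 0 matches. Of 32851 mouse promoter windows of the same length, 17.8% held TGACG or CGTCA and 1.55% held TGACGTCA. A match describes the letters of a window and was not tested as a binding site.

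All 8 genes are protein-coding in the GENCODE annotation of GRCm38, and each lies on a chromosome of its own except Adrb1 and Grk5, which are both on chromosome 19. Adra1a spans 66635251 to 66771168 on the plus strand of chromosome 14, Adra1b spans 43774606 to 43901210 on the minus strand of chromosome 11, and Adra1d spans 131545850 to 131562283 on the minus strand of chromosome 2. Adrb1 spans 56722199 to 56733113 on the plus strand of chromosome 19, and Adrb3 spans 27225776 to 27250616 on the minus strand of chromosome 8. Adcy5 spans 35154877 to 35305738 on the plus strand of chromosome 16, and Adcy6 spans 98589973 to 98610076 on the minus strand of chromosome 15. Grk5 spans 60889749 to 61095968 on the plus strand of chromosome 19 and overlaps Zfp950 on the opposite strand, which was listed at a mean of 6.11 TPM. The study describes a stranded library preparation, but whether the deposited values were counted by strand is not stated, so Grk5 and Zfp950 reads may not be separated.

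Several samples stood apart before any comparison. Genes of the Y chromosome were listed at 0.0159 to 0.191 TPM in both WT samples numbered 1 and at 3.03 to 30.6 TPM in the remaining 10, although the study describes male mice, so the genotype differences of the 8 genes are given below without both of them as well. The name of a sequencing run attached to R14del RV replicate 3 differs from the one shared by the remaining 11 samples, and a run of 1 sample cannot be told apart from that sample. Atrial transcripts were high in 3 ventricular samples, with Myl7, an atrial myosin light chain, at 299 TPM in WT LV replicate 3, 320 TPM in WT RV replicate 2 and 212 TPM in R14del RV replicate 2, while the remaining samples had 0.190 to 39.4 TPM. The cardiomyocyte markers Myh6, Tnnt2, Tnni3, Actc1 and Ryr2 were present in every sample, with summed levels from 17821 to 26623 TPM. Pln, the replaced gene, was listed at 1559 to 1963 TPM, and its values at the mouse gene do not tell the wild-type from the R14del allele. Transcripts of the mitochondrial genome took up 37.3% to 54.5% of each sample, and TPM is a share. The median log2 fold change of all tested genes was -0.09 in the LV genotype comparison and -0.0034 in RV. It was -0.17 between WT ventricles and -0.08 between R14del ventricles. Without mitochondrially encoded genes these medians were -0.080, 0.035, -0.059 and 0.059, in that order. The part of the mitochondrial share in them was not tested.

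The alpha-1 receptors were represented almost entirely by Adra1a and Adra1b, which mediate the hypertrophic and inotropic responses of cardiomyocytes to alpha-1 stimulation. Averaged over the 12 samples, Adra1b made up 52.0% of their summed TPM, Adra1a 44.4% and Adra1d 3.67%. Adra1a was listed at 7.62, 7.47 and 9.45 TPM in WT LV replicates 1 to 3, and at 5.98, 7.25 and 7.84 TPM in R14del LV. Its RV values were 7.63, 9.88 and 11.0 TPM in WT and 7.16, 11.0 and 7.40 TPM in R14del. The R14del mean of Adra1a was below the WT mean in both ventricles, and the samples overlapped in both.

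Adra1a differed between genotypes by -0.19 ± 0.18 on the log2 scale (SE, limma adjusted p = 0.798) in LV and by -0.15 ± 0.18 (adjusted p = 1) in RV. In order of mean level, WT RV was first at 9.50 ± 1.71 TPM (SD, n = 3), followed by R14del RV at 8.51 ± 2.13, WT LV at 8.18 ± 1.10 and R14del LV at 7.02 ± 0.952 TPM, and every neighbouring pair overlapped. Both RV samples with high atrial transcripts, WT RV replicate 2 and R14del RV replicate 2, were among the 3 highest for Adra1a. WT LV replicate 3, the LV sample with high atrial transcripts, was the highest LV sample for Adra1a at 9.45 TPM. However, WT RV replicate 3, the highest of all samples, had Myl7 at 1.46 TPM. The part of atrial tissue was not tested. The study chose Adra1a for PCR from among the genes of its sequencing results, so that choice is not independent of the values given here.

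Adra1b was listed at 9.90, 7.66 and 8.91 TPM in WT LV and at 7.87, 10.3 and 10.2 TPM in R14del LV. In the RV its samples were at 12.1, 7.47 and 9.62 TPM in WT and 10.6, 12.1 and 9.72 TPM in R14del. WT RV alone spanned nearly the whole range of the series for Adra1b. The genotype difference was 0.09 ± 0.17 on the log2 scale (SE, limma adjusted p = 0.926) in LV and 0.16 ± 0.17 (adjusted p = 1) in RV. R14del RV had the highest mean at 10.8 ± 1.22 TPM (SD, n = 3), then WT RV at 9.74 ± 2.33, R14del LV at 9.45 ± 1.37 and WT LV at 8.82 ± 1.12 TPM, with overlap between all neighbours.

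Adra1d encodes the alpha-1 receptor best known from vascular smooth muscle. It was listed at 0.435, 0.183 and 0.767 TPM in WT LV and at 0.728, 0.947 and 1.19 TPM in R14del LV, where the lowest R14del sample lay under the highest WT sample. In RV its 3 WT samples were at 0.377, 0.245 and 0.401 TPM and its 3 R14del samples at 1.11, 0.712 and 1.09 TPM, with no overlap. On the log2(TPM + 1) scale, which compresses such low values, Adra1d differed by 0.43 ± 0.16 (SE, unadjusted p = 0.0158 and adjusted p = 0.351 in limma) in LV and by 0.55 ± 0.16 (unadjusted p = 0.00353, adjusted p = 0.268) in RV, so neither difference passed the test.

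Of all tested genes, 11% had samples that did not overlap between the genotypes in RV, and 5.19% were non-overlapping with R14del higher. With a pseudocount of 0.1 TPM the Adra1d difference grew to 1.03 in LV (adjusted p = 0.387 by limma) and 1.28 in RV (adjusted p = 0.347). Over all alternatives its adjusted p ranged from 0.129 to 0.865 in LV and from 0.0866 to 0.919 in RV. Smooth muscle markers (Myh11, Acta2, Tagln, Cnn1 and Smtn) summed to 91.6 to 117.9 TPM in WT RV and 86.8 to 130.5 TPM in R14del RV, and these ranges overlapped. In LV they summed to 104.5 to 330.9 TPM in WT and 94.7 to 151.8 TPM in R14del, so the sums were not higher in R14del LV, where Adra1d had the higher mean. WT LV replicate 3, which had the highest Adra1d of the WT samples, also had the highest smooth muscle sum of all samples, 330.9 TPM, and the part of smooth muscle in the Adra1d values was not tested. Leaving out single samples, the LV difference of Adra1d ranged from 0.29 without WT LV replicate 2 (limma adjusted p = 0.865) to 0.58 without WT LV replicate 3 (adjusted p = 0.255), and the RV difference from 0.50 to 0.65. Without both WT samples numbered 1, the difference was 0.43 (adjusted p = 0.335) in LV and 0.57 (adjusted p = 0.364) in RV.

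As a share of the 3 alpha-1 transcripts within each sample, Adra1d held 1.19% to 4.01% in WT LV and 4.99% to 6.19% in R14del LV. Its share was 1.39% to 1.91% in WT RV and 2.99% to 6.01% in R14del RV. WT and R14del shares were separate in both ventricles, and they follow from the same Adra1d values described above.

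Adrb1 encodes the main beta receptor of cardiomyocytes, and it had the most even levels of the 8 genes, with a coefficient of variation of 10.6% over the 12 samples. It was listed at 3.92, 3.79 and 4.37 TPM in WT LV and at 3.82, 4.29 and 4.25 TPM in R14del LV. WT RV samples were at 4.31, 3.35 and 3.96 TPM, and R14del RV samples at 4.94, 3.55 and 3.80 TPM. The extremes of Adrb1 were both in RV, R14del RV replicate 1 and WT RV replicate 2, and the groups overlapped throughout. Genotype moved Adrb1 by 0.03 (95% interval -0.26 to 0.31, limma adjusted p = 0.971) in LV and by 0.06 (-0.23 to 0.35, adjusted p = 1) in RV. These intervals lie inside the 1.5-fold threshold in both directions. The group means ran from 4.12 ± 0.262 TPM (SD, n = 3) in R14del LV, through 4.10 ± 0.743 in R14del RV and 4.02 ± 0.303 in WT LV, to 3.87 ± 0.482 TPM in WT RV.

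Adrb3, best known as the beta receptor of adipocytes, was near the bottom of the measured range, with a mean of 0.117 TPM over the 12 samples. It did not reach the filter of 0.5 TPM and was therefore taken from a fit of all 22948 genes above 0. Adrb3 was listed at 0.0536, 0.0559 and 0.224 TPM in WT LV and at 0.102, 0.152 and 0.0837 TPM in R14del LV. In RV the WT samples were at 0.0564, 0.0705 and 0.0370 TPM and the R14del samples at 0.367, 0.0744 and 0.126 TPM. The R14del RV samples were all above the WT RV samples, by a narrow margin between R14del RV replicate 2 and WT RV replicate 2, and the LV groups overlapped. Of the 12526 genes that reached the filter, 5.19% had R14del RV samples all above WT RV. No such share was computed for genes under the filter, so Adrb3 has none beside it.

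The genotype difference of Adrb3 was 0.0052 ± 0.085 on the log2 scale (SE, limma adjusted p = 1) in LV and 0.17 ± 0.085 (adjusted p = 0.976) in RV. The log2(TPM + 1) scale compresses values this low, so the lack of a call does not show a small change. With a pseudocount of 0.1 TPM, Adrb3 differed by 0.09 in LV and by 0.78 in RV (limma adjusted p = 0.931 in RV). The highest Adrb3 values were in R14del RV replicate 1 and WT LV replicate 3. The adipocyte markers (Adipoq, Plin1, Cidec, Ucp1, Lep and Retn, of which 3 of 6 reached a mean of 0.5 TPM) were highest in those samples too, with summed levels of 10.5 and 9.24 TPM where the remaining 10 samples had 1.28 to 3.90 TPM, and Ucp1 was listed at 0 in all RV samples. The part of adipose tissue in the Adrb3 values was not tested.

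**Figure D1:**
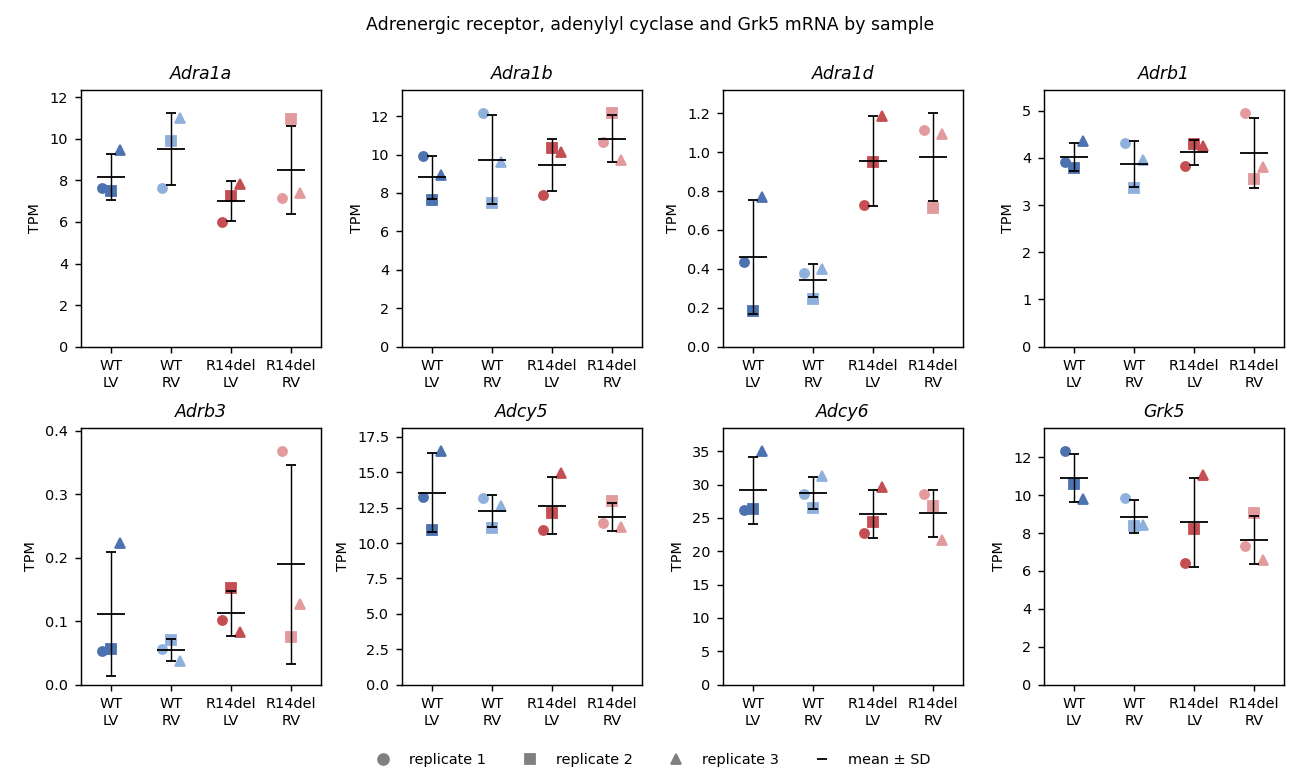
Level of each of the 8 genes in TPM (vertical axis, from 0, own scale per gene) in WT LV, WT RV, R14del LV and R14del RV. Symbols are replicates 1 to 3 and black bars are the mean ± SD. Adra1d in RV and Adrb3 in RV are the cases in which the genotypes did not overlap within a ventricle. In RV 11% of the tested genes did not overlap, a share that leaves out Adrb3, which was under the filter.

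Adcy5 and Adcy6, the calcium-inhibited cyclases that dominate in cardiomyocytes, held 77.7% of the summed TPM of the 10 adenylyl cyclases on average (range 74.0% to 81.5%). Adcy6 alone made up 53.2% and Adcy5 24.5%. Adcy6 was the most abundant of the 8 genes and was listed at 26.2, 26.3 and 35.0 TPM in WT LV and at 22.8, 24.4 and 29.7 TPM in R14del LV. Its RV values were 28.6, 26.5 and 31.2 TPM in WT and 28.5, 26.8 and 21.6 TPM in R14del. R14del RV replicate 3 was the lowest sample and WT LV replicate 3 the highest, and the genotypes overlapped in both ventricles. Adcy6 differed between genotypes by -0.18 ± 0.15 (SE, limma adjusted p = 0.788) in LV and by -0.17 ± 0.15 (adjusted p = 1) in RV on the log2 scale. By mean level, WT LV at 29.2 ± 5.01 and WT RV at 28.8 ± 2.38 TPM came before R14del RV at 25.7 ± 3.58 and R14del LV at 25.6 ± 3.60 TPM (SD, n = 3 each), and no neighbours in that order were separated.

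Adcy5 was listed at 13.3, 10.9 and 16.5 TPM in WT LV and 10.9, 12.1 and 14.9 TPM in R14del LV. WT RV samples were at 13.2, 11.0 and 12.6 TPM and R14del RV samples at 11.4, 12.9 and 11.1 TPM. All 4 groups of Adcy5 overlapped, and replicate 3 was the highest sample in both LV groups. The genotype difference was -0.08 ± 0.16 (SE, limma adjusted p = 0.919) in LV, a value that became 0.03 with quantile normalization and 0.04 with upper quartile scaling, and -0.05 ± 0.16 (adjusted p = 1) in RV. Mean levels were 13.5 ± 2.79 TPM in WT LV, 12.6 ± 2.04 in R14del LV, 12.3 ± 1.11 in WT RV and 11.8 ± 0.983 TPM in R14del RV (SD, n = 3 each).

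Grk5, the receptor kinase, was listed at 12.3, 10.6 and 9.80 TPM in WT LV and at 6.41, 8.23 and 11.0 TPM in R14del LV. Its RV samples were at 9.85, 8.35 and 8.41 TPM in WT and 7.29, 9.05 and 6.60 TPM in R14del. R14del LV replicates 1 and 2 were below every WT LV sample, but replicate 3 was above 2 of the 3, so the groups overlapped. R14del LV replicate 3 also had the lowest mitochondrial share of all samples, 37.3%. Grk5 differed between genotypes by -0.34 ± 0.17 (SE, 95% interval -0.71 to 0.04, limma adjusted p = 0.577) in LV and by -0.20 ± 0.17 (-0.57 to 0.18, adjusted p = 1) in RV. Leaving out single samples moved the LV value from -0.17 to -0.52. The group means fell in the order WT LV at 10.9 ± 1.28, WT RV at 8.87 ± 0.850, R14del LV at 8.56 ± 2.34 and R14del RV at 7.65 ± 1.26 TPM (SD, n = 3 each), again with overlap between neighbours.

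Set against the whole table, 0 of the 7 tested genes were called between genotypes in LV, where 0.519% of all tested genes were called (65 genes), and 0 of 7 in RV, where 0.271% were called (34 genes). At such shares a count of 0 does not set these genes apart from the rest. In the fit of all genes above 0, from which Adrb3 was read without a call, 0.0959% of genes were called in LV and 0.0741% in RV. At an unadjusted p under 0.05, 1 of the 7 passed in each ventricle, Adra1d in both, against 9.6% of all genes in LV and 6.22% in RV. The median log2 fold change of the 7 genes was -0.08 in LV and -0.05 in RV, beside -0.09 and -0.0034 for all genes. The 95% intervals of the 7 genes lay between -0.71 and 0.77 in LV and between -0.57 and 0.89 in RV, and bounds past 1.5-fold were those of Adra1d in both ventricles and of Grk5 in LV. Without both WT samples numbered 1, 0 of the 7 genes were called in either ventricle, while the counts over all genes rose to 231 in LV and 88 in RV. The counts over all genes rested on single samples as well, with 153 in LV without WT LV replicate 1, 20 without WT LV replicate 2 or 3, 19 without R14del LV replicate 1 and 27 without R14del LV replicate 2, and in RV 14 without WT RV replicate 2, 17 without WT RV replicate 3 and 20 without R14del RV replicate 3.

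Single samples moved most of the small genotype differences, none of which was called. The Adra1a difference ranged from -0.27 without R14del LV replicate 3 to -0.098 without R14del LV replicate 1 in LV, and from -0.33 without R14del RV replicate 2 to -0.050 without WT RV replicate 3 in RV. For Adcy6 the range was -0.28 without R14del LV replicate 3 to -0.043 without WT LV replicate 3 in LV, and -0.24 without R14del RV replicate 1 to -0.052 without R14del RV replicate 3 in RV. Grk5 in RV ranged from -0.31 without R14del RV replicate 2 to -0.11 without R14del RV replicate 3, and Adcy5 in RV from -0.12 without WT RV replicate 2 to -0.00020 without WT RV replicate 1. Adrb3 in RV ranged from 0.061 without R14del RV replicate 1 to 0.23 without R14del RV replicate 2.

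Without R14del RV replicate 3, the sample of the other sequencing run, the RV difference was 0.51 for Adra1d (limma adjusted p = 0.642), 0.23 for Adra1b and 0.20 for Adrb3, and it was between -0.11 and 0.097 for the other 5 genes. Without both WT samples numbered 1, the LV difference was -0.24 for Adra1a, 0.17 for Adra1b, 0.013 for Adrb1, -0.031 for Adrb3, -0.089 for Adcy5, -0.24 for Adcy6 and -0.26 for Grk5. The RV difference without them was -0.29 for Adra1a, 0.31 for Adra1b, 0.12 for Adrb1, 0.17 for Adrb3, -0.00020 for Adcy5, -0.17 for Adcy6 and -0.13 for Grk5. The adjusted p of these values in limma was at least 0.598.

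**Figure D2:**
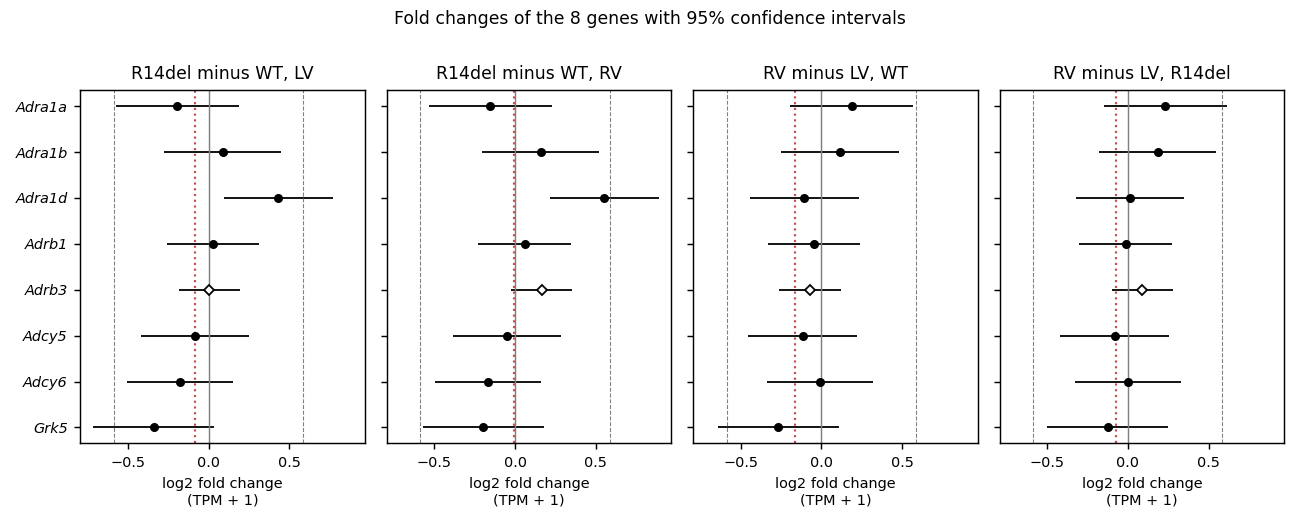
Log2 fold change on the TPM + 1 scale (horizontal axis) with its 95% confidence interval for each of the 8 genes in the 4 comparisons, from limma over all 12 samples. Filled circles are from the fit of 12526 genes and the open diamond (Adrb3) is from the fit of all genes above 0; dashed lines mark 1.5-fold, and the dotted line marks the median of all tested genes. The intervals of Adra1d do not include 0 in the genotype comparisons, although neither difference passed the adjusted test.

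Between the ventricles, none of the 7 tested genes was called in WT or in R14del hearts, and limma called 0 of 12526 genes (0%) in either genotype. Unadjusted p-values under 0.05 were obtained for 1811 genes (14.5%) in WT and 823 (6.57%) in R14del, and for 0 of the 7 genes in both. LV and RV samples overlapped for all 7 genes in both genotypes, where 26.1% of tested genes had no overlap in WT and 9.98% in R14del. For Adrb3 the fit of all genes above 0 gave no call, with 0.00436% of genes called in WT and 0% in R14del. The LV and RV samples with the same number deviated together in WT hearts, and with the replicate number as a block 12 genes were called between WT ventricles, none of them among the 8.

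The RV to LV difference of Adra1a was 0.19 ± 0.18 on the log2 scale (SE, limma adjusted p = 0.588) in WT and 0.23 ± 0.18 (adjusted p = 0.907) in R14del, which is 0.35 and 0.31 above the median of all genes in those comparisons. Grk5 had the lowest RV values relative to LV, by -0.27 ± 0.17 (adjusted p = 0.449) in WT and by -0.13 ± 0.17 (adjusted p = 0.988) in R14del. The medians of all genes were also below 0, at -0.17 in WT and -0.08 in R14del. For Adra1b the RV to LV difference was 0.11 and 0.18, for Adra1d -0.11 and 0.01, and for Adrb3 -0.07 and 0.09, in WT and R14del in that order. Adrb1 (-0.05 and -0.02), Adcy5 (-0.12 and -0.08) and Adcy6 (-0.0097 and 0.0011) were close to 0, and in WT hearts all 3 became positive under quantile normalization, at 0.12, 0.06 and 0.18. None of these values passed the test in limma, whichever scaling was used.

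The genotype difference was also compared between RV and LV as an interaction. For the 7 tested genes it lay between 0.01 and 0.14 on the log2 scale with unadjusted p-values of at least 0.574, and for Adrb3 it was 0.16 (unadjusted p = 0.211); the limma adjusted p was 1 for all 8 after rounding. Interactions were called for 0 of 12526 genes (0%), with 127 genes (1.01%) at an unadjusted p under 0.05. The intervals for the 7 genes ran from -0.50 to 0.67.

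Ratios between the genes were formed within each sample, where the scaling of TPM cancels. Adcy5 to Adcy6 was 0.464 ± 0.0461 in WT LV, 0.427 ± 0.0299 in WT RV, 0.493 ± 0.0116 in R14del LV and 0.465 ± 0.0592 in R14del RV (SD, n = 3 each), and all groups overlapped. Adra1a to Adra1b was 0.770, 0.975 and 1.06 in WT LV and 0.759, 0.702 and 0.772 in R14del LV. The RV values of that ratio were 0.629, 1.32 and 1.14 in WT and 0.673, 0.903 and 0.761 in R14del, and the low WT sample in each ventricle was replicate 1. Its mean was lower in R14del than in WT in LV (0.744 against 0.935, two-sided exact permutation p = 0.2) and in RV (0.779 against 1.03, exact p = 0.4).

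Adrb1 relative to the summed alpha-1 receptors was 0.218, 0.248 and 0.228 in WT LV and 0.214, 0.191 and 0.188 in WT RV. Every WT RV sample was below every WT LV sample, which gave a two-sided exact permutation p of 0.1, the smallest that 3 against 3 allow. In R14del hearts the ratio was 0.262, 0.232 and 0.222 in LV and 0.261, 0.149 and 0.209 in RV, with overlap (exact p = 0.4). Over the 12 ratio tests the adjusted p of the exact test was at least 0.8, and at this group size no ratio could reach 0.05.

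**Figure D3:**
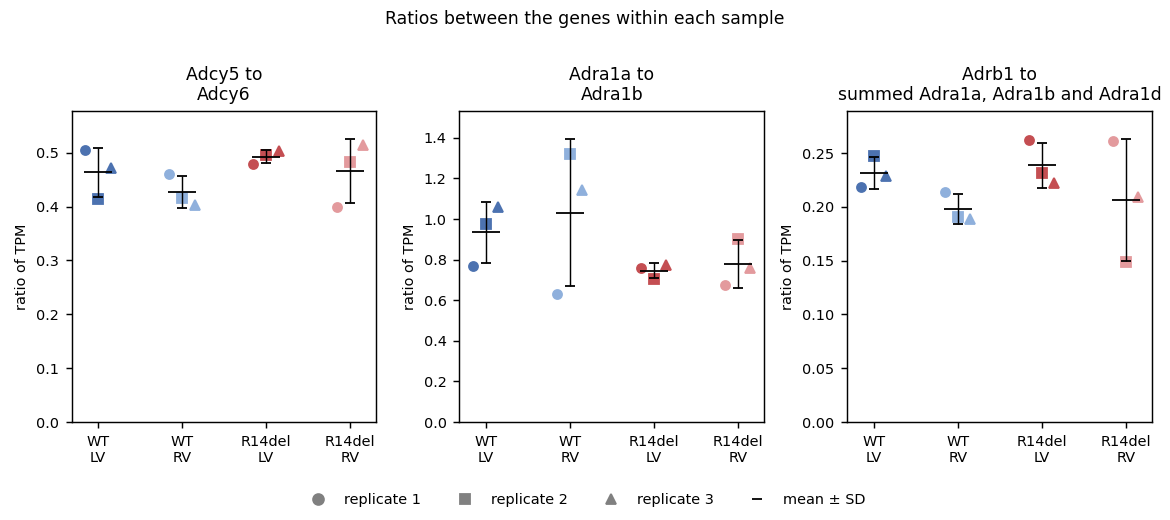
Ratios of TPM within each sample (vertical axis, from 0) for Adcy5 to Adcy6, Adra1a to Adra1b, and Adrb1 to the sum of Adra1a, Adra1b and Adra1d, by group. Symbols are replicates and bars the mean ± SD; Adrb1 to the alpha-1 sum in WT hearts is the only case in which the ventricles of a genotype did not overlap.

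The rest of the pathway was read from lists of other genes, the alpha-2 receptors among them, 94 genes of which 82 passed the filter. Between genotypes 0 of 82 were called in LV, and in RV 1 was called, Rgs2, which was lower, where 0.2% of all tested genes were called lower. At an unadjusted p under 0.05, 1 gene was higher and 8 were lower in R14del LV, against 1.76% higher and 7.85% lower over all genes. In R14del RV, 2 were higher and 6 lower, against 2.82% and 3.4%. The median log2 fold change of the 82 genes was -0.14 in LV and -0.0090 in RV, beside -0.09 and -0.0034 over all genes. Ranges did not overlap for 11 of the 82 in LV and 8 in RV, where 11% of all genes did not overlap in each.

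Rgs2 was listed at 23.9, 32.4 and 45.0 TPM in WT RV and at 14.1, 8.61 and 10.7 TPM in R14del RV. The LV samples were at 11.8, 22.0 and 17.8 TPM in WT and 8.85, 8.63 and 10.1 TPM in R14del. Rgs2 separated the genotypes in both ventricles, and WT RV was the group that stood above the other 3. In RV the R14del to WT difference of Rgs2 was -1.50 ± 0.24 on the log2 scale (SE, limma adjusted p = 0.0180). In LV the value was -0.80 ± 0.24 (adjusted p = 0.251), and the interaction was -0.70 ± 0.35 (unadjusted p = 0.0630, adjusted p = 1), so a difference between the ventricles was not shown.

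The RV call of Rgs2 was lost without WT RV replicate 2 (limma adjusted p = 0.0975), WT RV replicate 3 (0.0953), R14del RV replicate 2 (0.0658) or R14del RV replicate 3 (0.0890), and also when all 22948 genes were fitted (0.114) or the 6 RV samples alone (0.0844). Without both WT samples numbered 1, Rgs2 was called in RV at -1.72 (adjusted p = 0.00188) and in LV at -1.03 (adjusted p = 0.0292). Red blood cell markers were lower in R14del RV too, with sums of 956.4 to 1368 TPM against 1461 to 1736 TPM in WT RV. In LV their sums were 2087 to 2316 TPM in WT and 1093 to 2142 TPM in R14del. For these markers WT RV was thus below WT LV, whereas Rgs2 was higher in WT RV than in WT LV. The part of red blood cells in the Rgs2 values was not tested.

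The other receptor kinases, arrestins and RGS proteins had 0 calls in LV and, beside Rgs2, 0 calls in RV among 10 tested genes. Their median log2 fold change was -0.12 in LV and 0.03 in RV. Rgs3, chosen after its values were seen, was the gene of this list with higher values at an unadjusted p under 0.05, by 0.40 in LV (adjusted p = 0.420 by limma) and 0.45 in RV (adjusted p = 0.547).

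Among 13 tested G protein genes, 0 were called and the medians were -0.18 in LV and -0.10 in RV. Gnai1 and Gnai3, inhibitory alpha subunits that lower cyclase activity, had the smallest p-values. Gnai1 was listed at 1.51, 1.63 and 3.15 TPM in WT LV and 1.10, 1.05 and 0.854 TPM in R14del LV, with no overlap. It differed by -0.59 ± 0.22 (SE, limma adjusted p = 0.370) in LV and -0.39 ± 0.22 (adjusted p = 0.928) in RV. Gnai3 differed by -0.42 ± 0.15 (adjusted p = 0.357) in LV and by -0.25 ± 0.15 (adjusted p = 0.977) in RV.

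The remaining cyclases were lower than Adcy5 and Adcy6, and 4 of 8 passed the filter, with 0 calls. Adcy4 was at 5.35 ± 0.477 TPM in WT LV and 4.39 ± 0.453 TPM in R14del LV (SD, n = 3), a difference of -0.24 ± 0.12 (SE, limma adjusted p = 0.589), and the RV difference was -0.03 (adjusted p = 1). Adcy2 was under 0.2 TPM in every sample, as were Adra2c and Adra2a, and Adra2b was at most 0.289 TPM, so the alpha-2 receptors were at very low levels in this tissue. In the fit of all genes above 0, Adcy2 differed by -0.07 (adjusted p = 0.519) in LV.

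Phosphodiesterases, which degrade cyclic nucleotides, had 0 calls among 13 tested genes and medians of -0.18 in LV and -0.07 in RV. Pde7a, a cAMP-specific enzyme, was listed at 34.4, 41.9 and 41.5 TPM in WT LV and at 21.3, 17.2 and 26.8 TPM in R14del LV, with no overlap. Its RV values were 27.1, 36.8 and 35.2 TPM in WT and 17.8, 31.8 and 19.8 TPM in R14del, where replicate 2 lay within the WT range. Pde7a differed by -0.84 ± 0.21 (SE, limma adjusted p = 0.137) in LV and -0.53 ± 0.21 (adjusted p = 0.674) in RV. Pde3b was at 1.59 ± 0.446 TPM in WT LV and 0.624 ± 0.343 TPM in R14del LV (SD, n = 3), with a difference of -0.68 ± 0.22 (adjusted p = 0.287) against 0.07 ± 0.22 (adjusted p = 1) in RV, and its interaction of 0.75 had an unadjusted p of 0.0327 and an adjusted p of 1. Pde4b, chosen after its values were seen, differed by -0.53 in LV (adjusted p = 0.483) and -0.58 in RV (adjusted p = 0.675).

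Protein kinase A subunits and anchors had 0 calls among 13 tested genes, with medians of -0.02 in LV and -0.00062 in RV. Akap5, which anchors the kinase near receptors and calcium channels, was under the filter. It was listed at 0.130, 0.164 and 0.145 TPM in WT LV and 0.391, 0.356 and 0.605 TPM in R14del LV, and at 0.164, 0.112 and 0.141 TPM in WT RV and 0.368, 0.505 and 0.312 TPM in R14del RV. Akap5 samples of the genotypes were separate in LV and in RV, and the fold of mean TPM was 3.08 in LV and 2.84 in RV. Shares of genes without overlap were computed only for genes that reached the filter, so Akap5 has none beside it. In the fit of all genes above 0, Akap5 differed by 0.34 ± 0.066 (SE, limma adjusted p = 0.126) in LV and 0.29 ± 0.066 (adjusted p = 0.274) in RV. Its adjusted p was under 0.05 with upper quartile scaling (0.0147 for LV, 0.0249 for RV), with quantile normalization (0.0217 and 0.0478) and without mitochondrially encoded genes (0.0336 and 0.0470), and over all alternatives it reached 0.435 and 0.674. The differences on the log2(TPM + 1) scale under those scalings, 0.30 to 0.52, stayed under 1.5-fold, so Akap5 was not called there either. Prkar1b, a regulatory subunit, differed by -0.37 ± 0.18 (adjusted p = 0.823) in RV and by -0.02 ± 0.18 (adjusted p = 0.983) in LV.

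Of 8 tested cAMP effectors, 0 were called. Rapgef3, an exchange factor activated by cAMP, was at 6.85 ± 1.19 TPM in WT RV and 4.53 ± 1.35 TPM in R14del RV (SD, n = 3), a difference of -0.52 ± 0.18 (SE, limma adjusted p = 0.512), and its LV difference was -0.24 (adjusted p = 0.747).

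The Gq effectors, downstream of the alpha-1 receptors, had 0 calls among 11 tested genes and medians of -0.16 in LV and 0.04 in RV. Prkce, a protein kinase C isoform, was listed at 2.88, 3.32 and 3.92 TPM in WT LV and at 4.59, 4.61 and 4.60 TPM in R14del LV, with no overlap and a difference of 0.36 ± 0.18 (SE, limma adjusted p = 0.568). In RV the Prkce groups overlapped, with a difference of 0.19 ± 0.18 (adjusted p = 1). Prkcd, another isoform, differed by -0.35 ± 0.18 (adjusted p = 0.562) in LV and 0.0068 ± 0.18 (adjusted p = 1) in RV.

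Of the receptors that oppose or accompany beta stimulation, 4 of 5 were tested and 0 were called. Adora1, the adenosine receptor coupled to inhibitory G proteins, was listed at 4.47, 3.90 and 3.60 TPM in WT RV and 3.08, 3.11 and 2.83 TPM in R14del RV, with no overlap. It differed by -0.31 ± 0.13 (SE, limma adjusted p = 0.750) in RV and by -0.30 ± 0.13 (adjusted p = 0.508) in LV, where the groups overlapped. Adora2b was under the filter and was at 0.392 ± 0.142 TPM in WT LV and 0.206 ± 0.0831 TPM in R14del LV (adjusted p = 0.582 in the fit of all genes above 0).

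Catecholamine synthesis and removal had 0 calls among 6 tested genes. Ddc, the decarboxylase that makes dopamine, was listed at 1.89, 3.86 and 5.46 TPM in WT LV and at 0.770, 1.61 and 1.01 TPM in R14del LV, with no overlap. Ddc differed by -1.10 ± 0.35 (SE, limma adjusted p = 0.277) in LV and by -0.78 ± 0.35 (adjusted p = 0.789) in RV, where the groups overlapped. Th, the first enzyme of the route and a marker of sympathetic nerves, was listed at 0 in all RV samples and at most at 0.0863 TPM in LV.

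Over the 82 tested pathway genes, 3 were higher and 13 lower in WT RV than in WT LV at an unadjusted p under 0.05, against 0.655% higher and 13.8% lower over all genes. Between R14del ventricles 0 were higher and 5 lower, against 0.503% and 6.07%. Their median log2 fold change was -0.14 in WT and -0.07 in R14del, beside -0.17 and -0.08 over all genes.

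**Figure D4:**
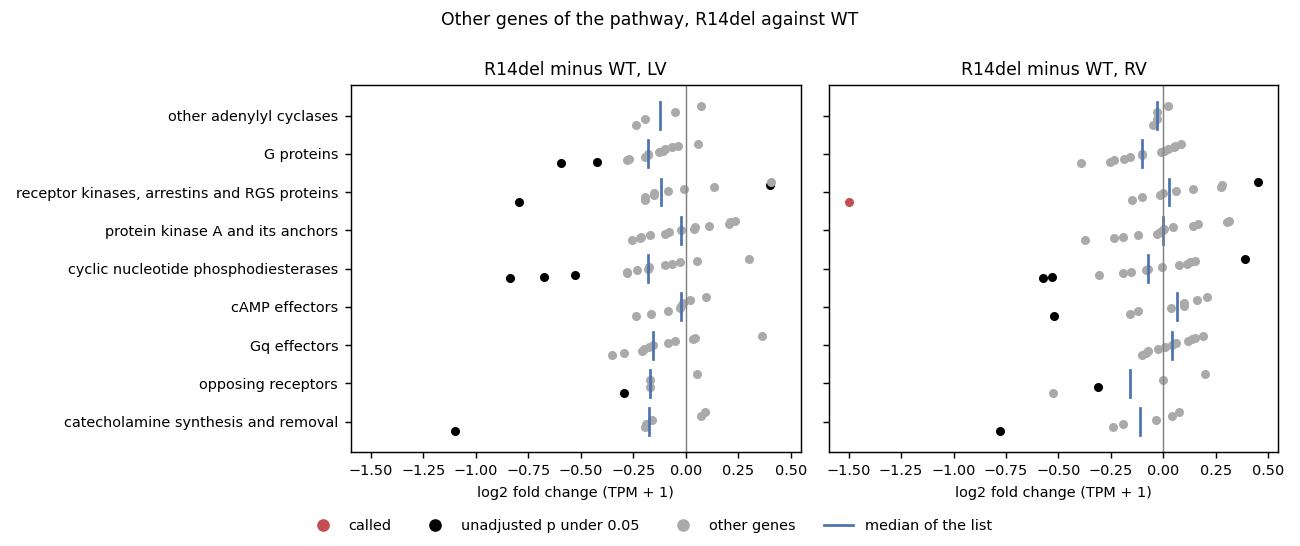
Log2 fold change on the TPM + 1 scale (horizontal axis) of the 82 tested genes of the other pathway lists, R14del against WT, in LV and RV. Each point is a gene, red marks a call, black an unadjusted p under 0.05, and the blue bar is the median of the list; the red point at -1.50 in RV is Rgs2.

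**Figure D5:**
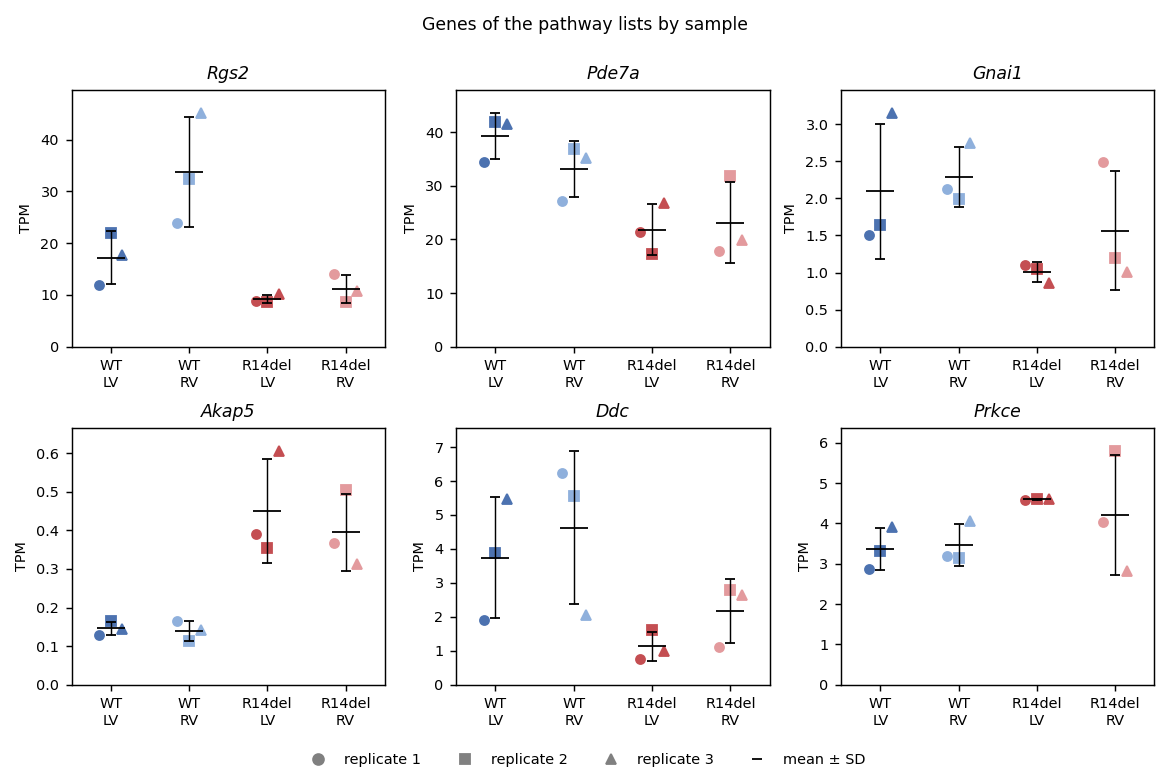
Level in TPM (vertical axis, from 0, own scale per gene) of Rgs2, Pde7a, Gnai1, Akap5, Ddc and Prkce in the 4 groups, with symbols for replicates and bars for the mean ± SD. Rgs2 is highest in WT RV, at 23.9 to 45.0 TPM, and Prkce lies at 4.59 to 4.61 TPM in R14del LV, above all WT LV samples.

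Finally, the genes whose levels followed each of the 7 tested genes most closely over the 12 samples were named by Pearson's r of log2(TPM + 1), as a description. These samples share genotype, ventricle and total scaling, so the values are given with no test. Zbtb20 (r = 0.951) and Lysmd3 (0.914) were nearest to Adra1a, Paqr9 (0.911) and Slc25a42 (0.878) to Adra1b, and Amigo3 (0.955) and Ybx2 (0.944) to Adra1d. Them6 (0.898) and Slc26a6 (0.880) were nearest to Adrb1, Tymp (0.928) and Cryz (0.924) to Adcy5, Lztr1 (0.948) and Pcx (0.925) to Adcy6, and Tubg2 (0.951) and Ddx59 (0.942) to Grk5. Among the 7 genes themselves the highest value was between Adcy5 and Adcy6 (0.748) and the lowest between Adra1d and Grk5 (-0.365).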

How the data were processed

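The authors prepared stranded polyA libraries with a TruSeq kit from Trizol RNA of flash-frozen ventricles and named CLC Genomics Workbench and GRCm38 for mapping. They deposited TPM values, 1 per gene and sample, with every sample summing to 1000000. The sequencing depth behind a value is therefore unknown, and no counting error is given. The program and annotation behind the TPM values, and whether strand was used in counting, are not given in the sources used here. The labels name no separate animals, although the study gives N = 3. Y-chromosome genes set both WT samples numbered 1 apart, so the WT samples are not all from a single animal. The labels do not settle the remaining samples, so p-values measure only the spread between these samples, which may in part be technical.

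Values were used as deposited. The limma fit (version 3.58.1 in R 4.3.3, with trended empirical Bayes moderation) used log2(TPM + 1), a pseudocount of 1 TPM and 4 group means over 12 samples, and the code was tested on simulated data. Benjamini-Hochberg adjustment ran over the 12526 genes whose mean reached 0.5 TPM. Genes under that filter were taken from a fit of all 22948 genes above 0 TPM, adjusted over those. A fold change on this scale understates the change of low genes. Ratios within samples were tested with two-sided exact permutation tests in scipy 1.17.1 (Python 3.11.15, numpy 2.4.6, pandas 2.3.3), and figures were drawn with matplotlib 3.10.9. A two-sided sign-flip test over same-numbered samples was run beside them, without adjustment. Annotation was GENCODE for GRCm38, in which 97.9% of the tested genes had a name.

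The 8 genes and all lists were chosen with earlier results of these data known. Named genes were the 8, each pathway gene that was called, and otherwise the 2 of each list with the smallest genotype p in either ventricle. The 2 genes most like each of the 7 that reached the filter, Pln, and cell type markers were named as well. Of the genes this rule gave, 2 are not reported here. Same-numbered LV and RV samples of WT correlated in their deviations from the group means (r = 0.657, 0.321 and 0.457, each over 0.1), so the numbers were taken to pair WT ventricles from the data. Alternatives were other pseudocounts, filters and scalings, removal of mitochondrially encoded genes, the compared samples alone, a replicate block, and leaving out samples. Leaving out both WT samples numbered 1 was added after seeing the data.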

Additional observations from a re-analysis of the deposited data

How the results depend on the processing

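None of the 8 genes was called under the alternatives run: 500 values were recomputed for 32 differences, of genotype and of ventricle, 450 of them kept their direction, and the lowest adjusted p in limma was 0.0866. The counts of called genes over the whole table moved more, and the cause was not tested. In LV the count of 65 became 22 with no filter, 101 with quantile normalization, 101 with upper quartile scaling, 119 with the replicate block and 231 without both WT samples numbered 1, and it ranged from 19 to 153 when single samples were left out. The split of called genes in LV was 12 higher and 53 lower, and it became 36 and 65 with quantile normalization and 37 and 64 with upper quartile scaling. In RV the count of 34 became 17 with no filter, 85 with quantile normalization, 84 with upper quartile scaling, 72 without mitochondrially encoded genes, 62 with the replicate block and 88 without both WT samples numbered 1, with a range from 14 to 39 when single samples were left out. The RV split was 9 higher and 25 lower, and it became 29 and 56 with quantile normalization, 31 and 53 with upper quartile scaling, and 30 and 42 without mitochondrially encoded genes. Between WT ventricles the count of 0 became 1 with no filter, 2 without mitochondrially encoded genes, 1 with the compared samples alone, 12 with the replicate block and 2 without both WT samples numbered 1, and 0 to 2 when single samples were left out. Between R14del ventricles and for the interaction the counts stayed at 0 except for 1 when a single sample was left out.

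Same-numbered samples of the genotypes did not all exceed r = 0.1 (-0.021, 0.156 and 0.092 in LV, and 0.061, 0.219 and 0.133 in RV). Nor did all those of the R14del ventricles (0.389, 0.230 and 0.054). The mean r of same-numbered samples was above that of other numbers in R14del ventricles (0.224 against -0.109). It was also above in the genotype comparisons of LV (0.076 against -0.038) and RV (0.138 against -0.070). Whether the numbers pair R14del ventricles was therefore not settled. The replicate block changed no call of the 8 genes.

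Values close to 0 turned sign with the scaling. Under quantile normalization, upper quartile scaling and removal of mitochondrially encoded genes, in that order, the WT ventricle difference became 0.12, 0.12 and 0.070 for Adrb1, 0.062, 0.077 and 0.011 for Adcy5 and 0.18, 0.19 and 0.13 for Adcy6, and the R14del ventricle difference became 0.061, 0.064 and 0.13 for Adrb1 and 0.00089, 0.0084 and 0.072 for Adcy5. Removal of mitochondrially encoded genes also gave 0.022 for Grk5 between R14del ventricles and 0.0062 for Adcy4 in RV. In LV, quantile normalization and upper quartile scaling gave 0.026 and 0.037 for Adcy5 and 0.068 and 0.061 for Prkar1b. Without both WT samples numbered 1, Adrb3 in LV was -0.031, and in RV Adra2c was 0.026, Pde3b -0.10 and Prkcd -0.18.

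Leaving out single samples turned further small values. In LV the ranges were -0.0012 to 0.20 for Adra1b, -0.0056 to 0.076 for Adrb1, -0.031 to 0.077 for Adrb3, -0.22 to 0.057 for Adcy5, -0.087 to 0.022 for Adra2b and -0.23 to 0.10 for Prkar1b. In RV they were -0.0020 to 0.31 for Adra1b, -0.056 to 0.14 for Adrb1, -0.022 to 0.026 for Adra2c, -0.089 to 0.053 for Adcy4, -0.10 to 0.28 for Pde3b, -0.18 to 0.13 for Prkcd, -0.022 to 0.39 for Prkce and -0.013 to 0.12 for Adora2b. Between WT ventricles they were -0.045 to 0.27 for Adra1b, -0.25 to 0.040 for Adra1d, -0.11 to 0.032 for Adrb1, -0.25 to 0.024 for Adcy5 and -0.077 to 0.12 for Adcy6. Between R14del ventricles they were -0.072 to 0.11 for Adra1d, -0.13 to 0.062 for Adrb1, -0.016 to 0.16 for Adrb3, -0.17 to 0.033 for Adcy5, -0.077 to 0.11 for Adcy6 and -0.30 to 0.054 for Grk5. The log2 differences of ratios ranged from -0.13 to 0.41 (WT ventricles) and -0.056 to 0.16 (R14del ventricles) for Adra1a to Adra1b, from -0.027 to 0.093 (LV) and -0.16 to 0.24 (RV) for Adrb1 to the alpha-1 sum, and from -0.17 to 0.016 (R14del ventricles) for Adcy5 to Adcy6.

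TPM keeps no read counts, so the low levels of Adra1d, Adrb3 and Akap5 carry an unknown counting error, and with 3 samples a group the intervals of most of the 8 genes are wider than the differences measured.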
